A study of Bos taurus with 6 samples.

Results

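The 7 miRNAs described here, bta-miR-361, bta-miR-191, bta-miR-103, bta-miR-107, bta-miR-423-3p, bta-miR-423-5p and bta-miR-186, are often taken as references in quantitative PCR of miRNAs. They were chosen by name from the 1028 bovine miRNAs listed in each library, with earlier results of these data known. All 7 passed the filter on low reads, which kept 365 miRNAs. The libraries came from bovine granulosa cells, the cells that surround the oocyte, aspirated from slaughterhouse ovaries and from follicles of 3 to 6 mm. Cells were grown in medium with vesicle-depleted serum for 24 h at 37 °C. They were then kept for a further 24 h at 37 °C (control, n = 3) or moved to 42 °C (heat stress, HS, n = 3). Libraries carry the numbers 1 to 3 within a group, with no word on the animals or cell pools behind a number, so p-values measure only the spread between these libraries.

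A miRNA is a short RNA that guides a silencing complex to messenger RNAs with a matching site. In PCR, the amount of a target miRNA is divided by that of a reference to cancel differences in input. A reference therefore has to stay at the same level in every sample, and any change of its own with the treatment passes into every target with the opposite sign. The question examined was how much each of the 7 varied between libraries and how much it differed between HS and control cells.

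By the ARS-UCD2.0 RefSeq annotation, which is not the assembly used for mapping, the 7 miRNAs belong to 7 miRNA genes. The gene of bta-miR-361 overlaps CHM, which encodes a Rab escort protein, and that of bta-miR-186 overlaps ZRANB2, which encodes a splicing factor. bta-miR-103 has a gene copy in PANK3 and another in PANK2, and bta-miR-107 has its gene in PANK1. The PANK genes encode pantothenate kinases, the enzymes that begin coenzyme A synthesis. Both bta-miR-423 arms come from the hairpin of MIR423, which overlaps NSRP1, a gene for a splicing regulator of nuclear speckles. The gene of bta-miR-191 lies beside that of bta-miR-425 and overlaps that of bta-miR-191b.

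Libraries held 2076239 to 4590971 reads assigned to miRNAs, recovered from the deposited values. Together the 7 miRNAs took 3.60% to 4.31% of these reads. The lowest read number behind any of their values was 2377, for bta-miR-423-3p in control replicate 1. Counting error alone would give an SD of 0.0066 to 0.025 on the log2 scale, and the SD measured over the 6 libraries was 6.58 to 30.4 times as large.

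Levels are given as normalised CPM, read shares rescaled with TMM (trimmed mean of M-values) factors so that most miRNAs match between libraries. Averaged over the 6 libraries, bta-miR-103 was the highest of the 7 with 14332, followed by bta-miR-191 with 10121 and bta-miR-186 with 5963. bta-miR-361 had 3443, bta-miR-107 had 2146, bta-miR-423-5p had 1827 and bta-miR-423-3p had 1004. By mean level they ranked between 15 and 77 among the 1028 miRNAs listed. The order held in 6 of 6 libraries for each pair of neighbours except bta-miR-107 and bta-miR-423-5p, which changed places. The former was above the latter in 4 of 6 libraries, and their ranges overlapped. These are orders of reads, since the efficiency with which each sequence enters a library was not measured.

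**Figure D1:**
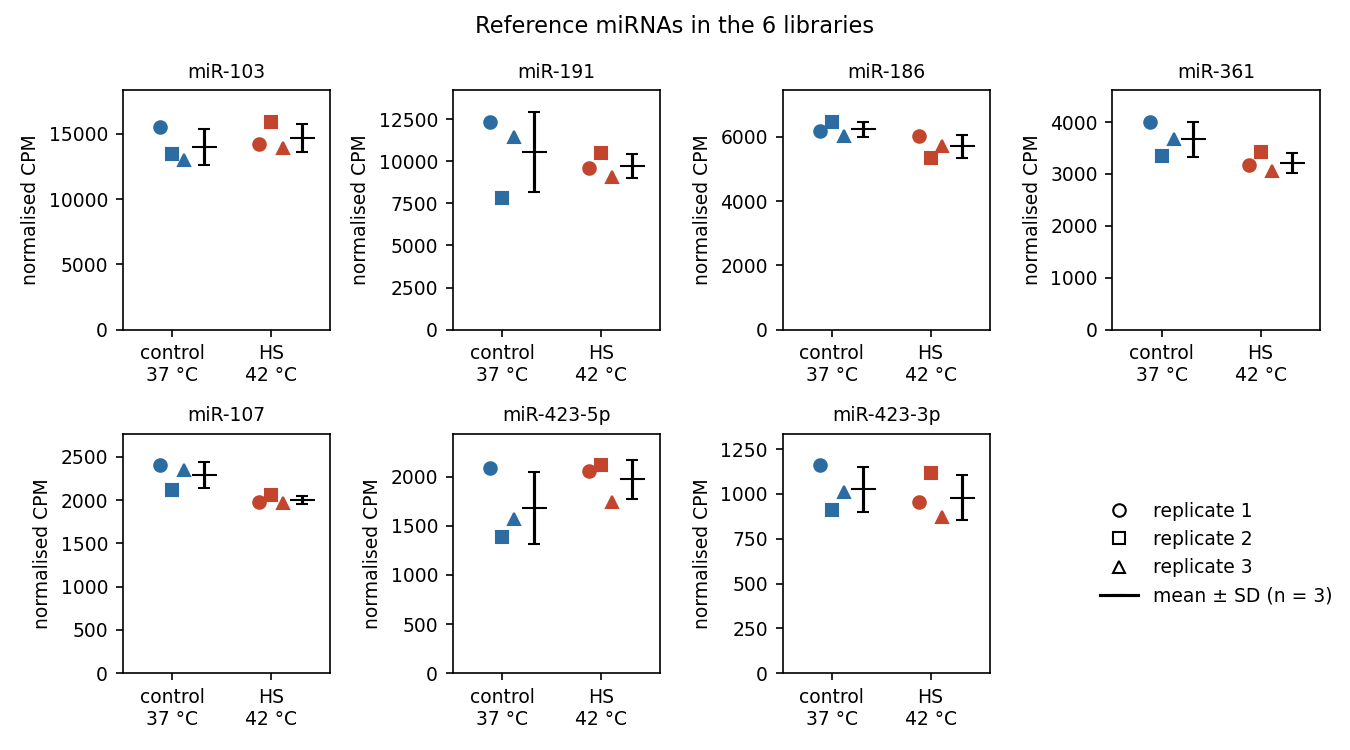
Normalised CPM (y axis, from 0) of each of the 7 reference miRNAs in the 3 control (blue) and 3 HS (red) libraries, with marker shapes for the replicate number and black bars for the mean ± SD of a group (n = 3). Control replicate 2 is far below the other control libraries for bta-miR-191, at 7840, and the groups are separate only for bta-miR-107 and, by a small margin, bta-miR-186.

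Libraries stood apart as a whole before any comparison of groups. In control replicate 1, the shallowest library, all 7 miRNAs were above their own mean over the 6 libraries, and their geometric mean was 0.19 log2 units above the average library. In control replicate 2 only 1 of the 7, bta-miR-186, was above its own mean, and the geometric mean was 0.13 units below the average. HS replicate 3 had 0 of 7 above, with a geometric mean 0.11 units below. The share of reads taken by the 7, which TMM does not touch, was likewise highest in control replicate 1 and lowest in control replicate 2.

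None of the 7 differed between HS and control cells by the test across all miRNAs. In limma, 0 of 7 had an adjusted p of at most 0.2, against 7.12% of the 365 miRNAs tested, and 0 of 7 had an adjusted p under 0.05, against 2.19%. When a change of 1 log2 unit or more was also required, the number was 0 of 7, against 3.01%. At an unadjusted p under 0.05 the number was also 0 of 7, against 14.5%, and the edgeR quasi-likelihood and DESeq2 tests gave 0 of 7 at an adjusted p of at most 0.2, against 6.85% and 7.44% of the miRNAs to which they gave an adjusted p. All 7 had a log2 fold change under 0.5 in size, as did 81.9% of all miRNAs tested. The fold change was below 0 in 5 of 7, against 50.4%, and the median of the 7 was -0.094, against -0.0015 for all. Without control replicate 1 only 3 of 7 were below 0 and the median was 0.024. Upper quartile scaling, which moved the median of all miRNAs tested to -0.18, put bta-miR-361 at -0.37, bta-miR-107 at -0.38, bta-miR-186 at -0.32 and bta-miR-191 at -0.28. Under it bta-miR-423-3p was at -0.25, bta-miR-103 at -0.11 and bta-miR-423-5p at 0.059, with 0.257 as the lowest limma adjusted p of the 7.

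A p above the threshold does not show that a level stayed the same, so the intervals are given. The 95% interval of the log2 fold change lay within 0.5 of 0 for 5 of 7 miRNAs, against 17.8% of those tested, a limit chosen after the values were seen. All 7 had a high mean level, at least 1004 normalised CPM. The median SD over the 6 libraries was 0.23 log2 units for the 161 tested miRNAs with a mean of at least 100. For all 365 it was 0.30. The share of such intervals among miRNAs of like level was not computed. The exceptions were bta-miR-191, whose interval reached -0.52, and bta-miR-423-5p, whose interval reached 0.67.

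**Figure D2:**
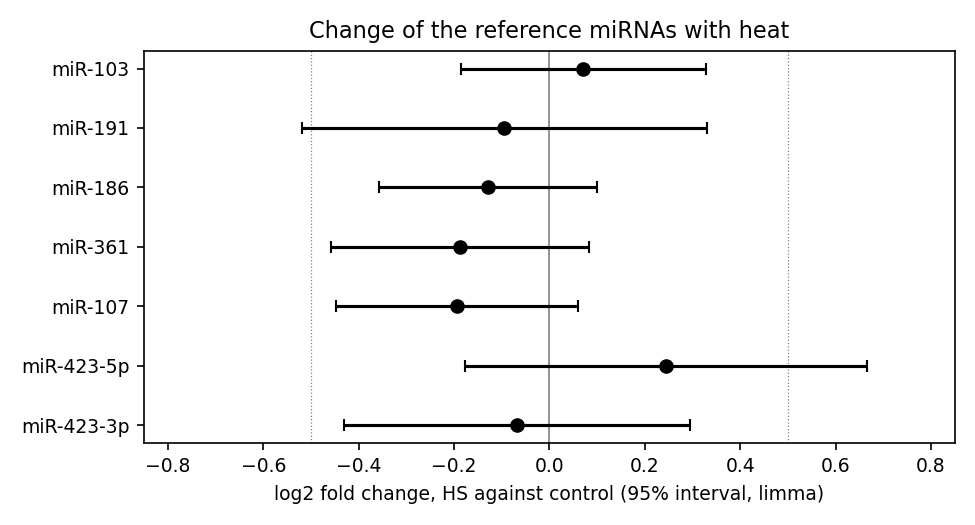
Log2 fold change of HS against control cells (x axis) with its 95% interval from limma for each of the 7 reference miRNAs, ordered by level; dotted lines mark -0.5 and 0.5. All 7 intervals include 0, and the interval of bta-miR-423-5p extends furthest, to 0.67.

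bta-miR-361, known for restraint of vascular growth factor VEGFA, is the reference that the study used for droplet PCR. It was taken there, by a measure not named, as the most stably expressed miRNA at both temperatures. Its normalised CPM was 4006, 3336 and 3668 in control and 3178, 3423 and 3049 in HS replicates 1, 2 and 3. The highest value was in control replicate 1, and HS replicate 2 lay inside the control range, so the groups overlapped. Control cells averaged 3670 ± 335 and HS cells 3217 ± 190 (SD over 3 libraries). HS minus control was thus -0.19 ± 0.114 in log2 (estimate ± SE, limma adjusted p = 0.539). The 95% interval ran from -0.46 to 0.083, which as a change in level is -27.2% to 5.93%. Without control replicate 1 the difference was -0.12 (limma adjusted p = 0.631), and without control replicate 2 it was -0.25 (limma adjusted p = 0.317).

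bta-miR-191 is transcribed with bta-miR-425 and has been studied in cell growth and in tumours. It had 12349, 7840 and 11427 normalised CPM in control and 9584, 10465 and 9065 in HS replicates 1, 2 and 3. The control libraries held both its highest and its lowest value, and all 3 HS libraries fell between them. Its SD within control cells was 0.35 log2 units, the largest of the 7, against 0.10 in HS cells. HS minus control was -0.094 ± 0.179 in log2 (limma adjusted p = 0.933, interval -0.52 to 0.33). Without control replicate 2 it was -0.29 (limma adjusted p = 0.258), and without control replicate 1 it was 0.033 (limma adjusted p = 0.961).

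Its neighbour bta-miR-425-5p, itself used as a reference, varied less. It had 1771, 1455 and 1720 normalised CPM in control and 1527, 1637 and 1560 in HS replicates 1, 2 and 3, so control replicate 2 was again the lowest. Its SD over the 6 libraries was 0.11, against 0.24 for bta-miR-191. The ratio of bta-miR-191 to bta-miR-425-5p ran from 5.39 to 6.97 over the 6 libraries. The opposite arm bta-miR-425-3p was at 70.3 to 96.2 normalised CPM (log2 fold change 0.18, limma adjusted p = 0.744). bta-miR-191b, chosen because its gene overlaps that of bta-miR-191, was at 4.13 to 12.3 normalised CPM, or 10 to 39 reads.

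bta-miR-103 and bta-miR-107 form a family with nearly the same sequence, known for effects on insulin sensitivity through caveolin and on the miRNA-processing enzyme Dicer. bta-miR-103 had 15552, 13451 and 12959 normalised CPM in control and 14228, 15925 and 13877 in HS replicates 1, 2 and 3. The groups overlapped widely. Its log2 fold change was 0.071 ± 0.108 (limma adjusted p = 0.853, interval -0.19 to 0.33), and its sign turned under upper quartile scaling (-0.11). Leaving out a library gave 0.011 (without HS replicate 2) to 0.15 (without control replicate 1).

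bta-miR-107 had 2403, 2118 and 2351 normalised CPM in control and 1978, 2055 and 1968 in HS replicates 1, 2 and 3. Every HS library was below every control library, and the HS libraries were the tightest of any group among the 7, with an SD of 0.034 log2 units. The control mean was 2291 ± 152 and the HS mean 2000 ± 47.9 (SD over 3 libraries). In log2 the difference was -0.19 ± 0.107 (estimate ± SE, limma adjusted p = 0.469, interval -0.45 to 0.059). Groups that do not overlap were found for 2 of 7 miRNAs, against 20% of all tested, and both were lower in HS cells, against 10.4% in that direction and 9.59% in the other, which held 0 of 7. With fewer libraries such separation is easier to reach. The number was 4 of 7 without control replicate 1, against 37.5% of all tested, and 4 of 7 without control replicate 2, against 33.4%. With any other library left out it was 2 or 3 of 7, against 26% to 28.2%.

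bta-miR-186, studied mainly as a restraint on growth in tumour cells, was the other. It had 6175, 6470 and 6039 normalised CPM in control and 6032, 5335 and 5729 in HS replicates 1, 2 and 3. The gap between the lowest control and the highest HS library was small beside the spread within either group. Its log2 difference was -0.13 ± 0.0964 (limma adjusted p = 0.639, interval -0.36 to 0.099), and without HS replicate 2 it was -0.083 (limma adjusted p = 0.929).

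The arms of the bta-miR-423 hairpin, of which the 5p arm is known as a circulating marker of heart failure, had fold changes of opposite sign, neither past the threshold, though both arms were high in control replicate 1 and low in control replicate 2. bta-miR-423-3p had 1161, 910.5 and 1010 normalised CPM in control and 952.6, 1115 and 872.5 in HS replicates 1, 2 and 3, and the groups overlapped. Its log2 fold change was -0.068 ± 0.153 (limma adjusted p = 0.947, interval -0.43 to 0.29), and its sign turned without control replicate 1 (0.024) or without HS replicate 3 (0.012).

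bta-miR-423-5p had 2090, 1390 and 1567 normalised CPM in control and 2055, 2117 and 1743 in HS replicates 1, 2 and 3. Control replicate 1 lay among the HS libraries, and the other control libraries were below all of them. Control cells averaged 1683 ± 364 and HS cells 1971 ± 200.4 (SD over 3 libraries). Its log2 fold change in limma with all 6 libraries, 0.24 ± 0.178, was the largest in size of the 7 (limma adjusted p = 0.635, interval -0.18 to 0.67). It was not the largest in edgeR quasi-likelihood (0.21, against -0.22 for bta-miR-107) or with upper quartile factors. Nor was it the largest without control replicate 2 or without HS replicate 2. Without control replicate 1 it was 0.41 (limma adjusted p = 0.27), and without control replicate 2 it was 0.12 (limma adjusted p = 0.807).

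The spread between libraries was next set beside that of other miRNAs, as the SD of log2(normalised CPM + 1) over the 6 libraries. It was 0.096 for bta-miR-186, 0.12 for bta-miR-103 and bta-miR-107, 0.14 for bta-miR-361, 0.16 for bta-miR-423-3p, 0.24 for bta-miR-191 and 0.25 for bta-miR-423-5p. The median of the 7 was 0.14, against 0.30 for the 365 miRNAs tested and 0.23 for the 161 of them with a mean of at least 100 normalised CPM. The highest library was 1.21 times the lowest for bta-miR-186 and 1.58 times for bta-miR-191. Among the 365, ordered from the smallest SD, bta-miR-186 was at rank 13, bta-miR-103 at 22, bta-miR-107 at 30, bta-miR-361 at 45 and bta-miR-423-3p at 63. bta-miR-191 and bta-miR-423-5p were at ranks 127 and 140. Ranks describe these 6 libraries and were not tested.

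**Figure D3:**
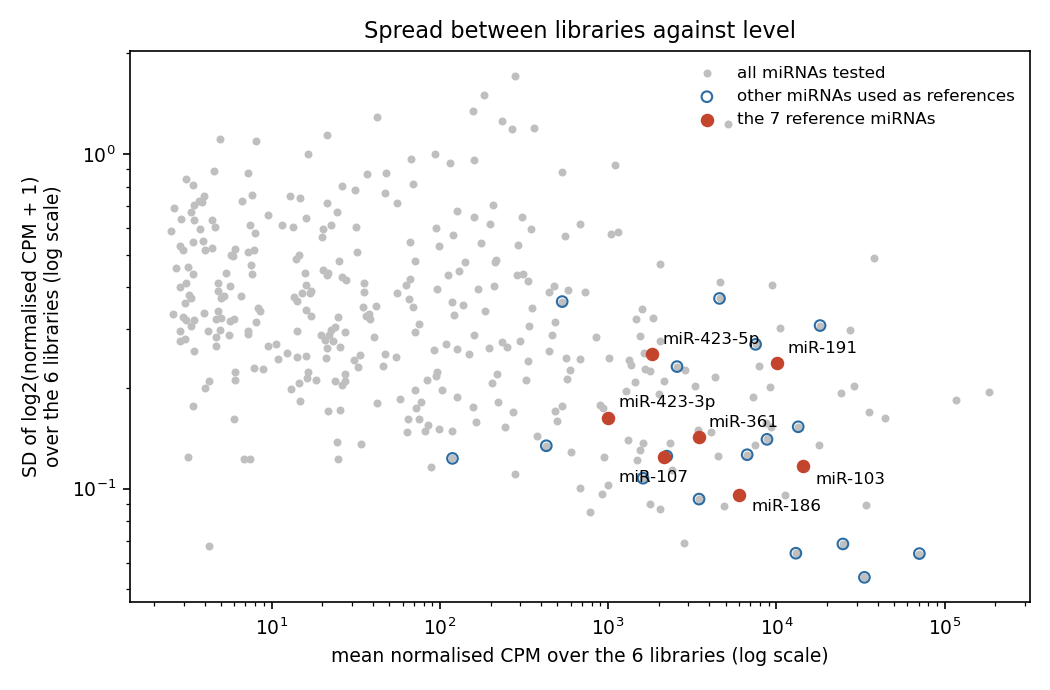
SD of log2(normalised CPM + 1) over the 6 libraries (y axis, log scale) against mean normalised CPM (x axis, log scale) for the 365 miRNAs tested, with the 7 reference miRNAs in red and the 17 other tested miRNAs used as references circled in blue. The 7 lie between 0.096 and 0.25, and 5 of the blue circles lie below all of them.

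The order of spread depended on whether the group difference was counted. Pooled within groups, the SD was 0.072 for bta-miR-186 and 0.073 for bta-miR-107, with ranks 11 and 12 of 365. It was 0.11 for bta-miR-361, 0.12 for bta-miR-103, 0.18 for bta-miR-423-3p, 0.24 for bta-miR-423-5p and 0.26 for bta-miR-191. bta-miR-107 was therefore among the steadiest within a temperature while its groups did not overlap between temperatures. Scaling by library totals in place of TMM left the SD over the 6 libraries between 0.094 and 0.24. With upper quartile factors the median SD of the 7 rose to 0.22, and the smallest was that of bta-miR-103 at 0.17.

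Steadier miRNAs were found among others in use as references. The 5 with the smallest SD and a mean of at least 100 were bta-miR-16b (0.054), bta-let-7a-5p (0.064), bta-miR-25 (0.064), bta-miR-26a (0.068) and bta-miR-22-3p (0.069). bta-miR-16b had 31579 to 34512 normalised CPM over the 6 libraries, and its log2 fold change was -0.053 (limma adjusted p = 0.844). All but bta-miR-22-3p came from a list of 18 other miRNAs used as references. That list was written with earlier results of these data known. The 5 were picked for a small SD in these same libraries, so their steadiness is described and was not tested. bta-miR-16b and bta-let-7a-5p belong to families with close copies, so how reads were shared within those families is uncertain.

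Of those 18, 17 passed the filter, and bta-miR-127 was too low, at no more than 0.557 normalised CPM in any library. Their median SD was 0.13 and their median log2 fold change -0.00026. With the limit of 0.2 on the limma adjusted p, 1 of the 17 rose under heat and 0 fell. Of all 365 tested, 11 rose and 15 fell, 7.12% in either direction. Groups did not overlap in 5 of the 17, against 20% of all tested. Only 1 of the 17 was thus past the limit. It was bta-miR-320a, with 4552, 3504 and 3127 normalised CPM in control and 5806, 5842 and 4706 in HS replicates 1, 2 and 3, so the groups did not overlap. Its log2 fold change was 0.56 (limma adjusted p = 0.199), and the call was lost in 9 of 18 alternatives, where adjusted p ran from 0.0608 to 0.512 over the 18. Leaving out any library other than control replicate 1 ended the call. The largest SDs of the list belonged to bta-miR-320a (0.37), bta-miR-101 (0.36) and bta-miR-92a (0.31), each above all 7 reference miRNAs.

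Ratios between miRNAs of 1 library do not depend on how the library was scaled, and were used to compare the 7 with each other. Over the 6 libraries the SD of the log2 ratio ran from 0.046, for bta-miR-361 to bta-miR-107, to 0.32, for bta-miR-423-5p to bta-miR-186. Among all 12880 pairs of miRNAs with a mean of at least 100, the median was 0.39, and only 12 pairs had a smaller SD than bta-miR-361 and bta-miR-107. bta-miR-361 was 1.55 to 1.67 times bta-miR-107 in every library, and the mean log2 ratio was 0.68 in both control and HS cells. The log2 fold change of each was -0.19, and a ratio does not show a change that both miRNAs share.

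**Figure D4:**
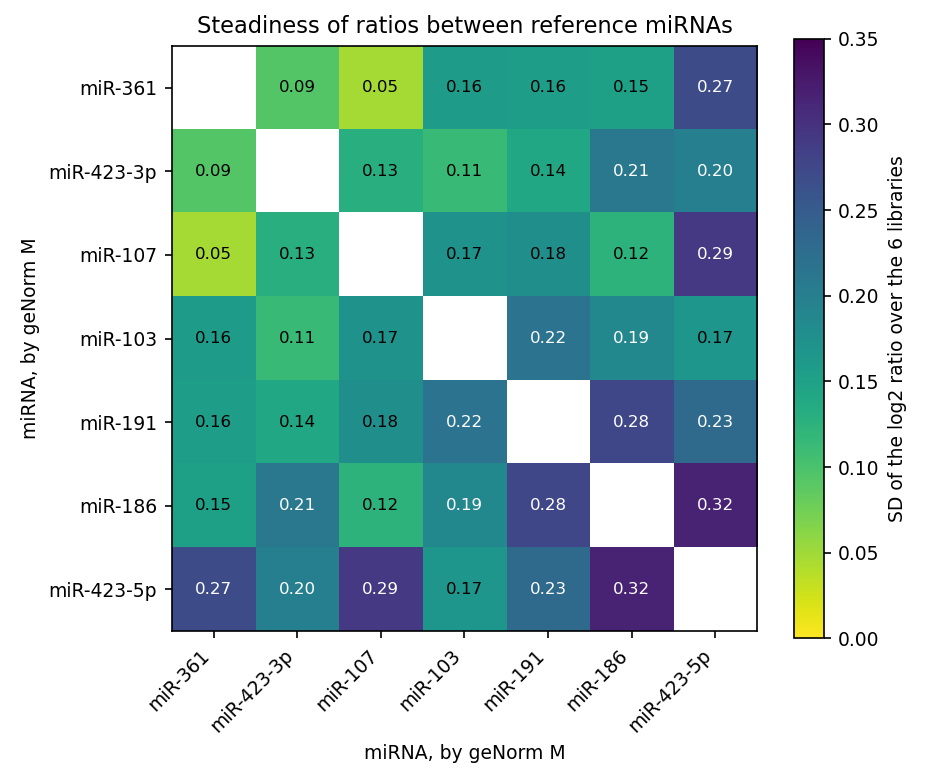
SD over the 6 libraries of the log2 ratio between each pair of the 7 reference miRNAs (colour and printed value), with rows and columns ordered by geNorm M from the lowest. bta-miR-361 and bta-miR-107 form the steadiest pair at 0.05, and bta-miR-423-5p has the largest values, up to 0.32 with bta-miR-186.

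Averaged over its 6 partners, this SD is the geNorm M, in which a low value marks a miRNA that keeps its ratio to the others. It does not show a change that the miRNAs share. It was 0.15 for bta-miR-361 and bta-miR-423-3p, 0.16 for bta-miR-107, 0.17 for bta-miR-103, 0.20 for bta-miR-191, 0.21 for bta-miR-186 and 0.25 for bta-miR-423-5p. bta-miR-361 had the lowest value, and it remained lowest when any library but HS replicate 2 or HS replicate 3 was left out, where bta-miR-423-3p was lowest. bta-miR-423-5p had the highest in every such setting. The measures thus ordered the miRNAs differently. bta-miR-186 had the smallest SD of the 7 after TMM scaling and the second highest M, and in control replicate 1, where all 7 were above their own means, it was only 0.053 log2 units above. Its place as the steadiest by SD was not kept in every setting. Without control replicate 1 the smallest SD was that of bta-miR-361 (0.10), and without control replicate 3 that of bta-miR-103 (0.11). Without HS replicate 2 the SD of bta-miR-186 fell to 0.063.

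The miRNAs whose ratio to each of the 7 was the steadiest were looked up among the 160 others with a mean of at least 100. bta-let-7c was nearest to both bta-miR-361 and bta-miR-107, with SDs of the log2 ratio of 0.037 and 0.041. bta-miR-378 (0.063) and bta-miR-130a (0.080) were nearest to bta-miR-103. bta-miR-7857-5p (0.072) and bta-miR-15b (0.10) were nearest to bta-miR-191. bta-miR-140 (0.088) and bta-miR-181b (0.090) were nearest to bta-miR-423-3p, while bta-miR-1307 (0.066) and bta-let-7b (0.067) were nearest to bta-miR-423-5p. For bta-miR-186 they were bta-miR-16b (0.062) and bta-miR-22-3p (0.082). The arms of bta-miR-423 thus had different nearest miRNAs.

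Of the 21 pairs among the 7, the log2 ratio did not overlap between groups in 6, against 23.1% of all pairs with a mean of at least 100. Of these 6 pairs, 4 held bta-miR-423-5p, which was higher in HS cells relative to bta-miR-423-3p, bta-miR-191, bta-miR-361 and bta-miR-107. The others were bta-miR-103 relative to bta-miR-361 and to bta-miR-107, again higher in HS cells. Pairs that share a miRNA are not independent, so these 6 do not count as separate results. With 1 library left out, the share among all such pairs was 27.5% to 38.5%, and the number among the 21 was 6 to 11. The number was 11 of 21 without control replicate 1, against 38.5% of all such pairs, and 11 of 21 without control replicate 2, against 37.4%.

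The ratio between the bta-miR-423 arms was higher in every HS library. The 5p arm was 1.80, 1.53 and 1.55 times the 3p arm in control and 2.16, 1.90 and 1.997 times in HS replicates 1, 2 and 3. Control replicate 1, high for each arm alone, was below all HS libraries in the ratio. The log2 ratio averaged 0.70 ± 0.131 in control and 1.01 ± 0.093 under heat (SD over 3 libraries), a difference of 0.31. By an exact two-sided permutation test p was 0.1, the smallest that 3 against 3 libraries allow, and 0.1 after adjustment over the 2 ratios tested, so the design could not reach 0.05. The difference was 0.26 to 0.39 when any library was left out. Among 33 hairpins with both arms tested, the arm ratio did not overlap between groups in 12.1%, and bta-miR-423 had the 5th largest difference, against a median size of 0.22.

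**Figure D5:**
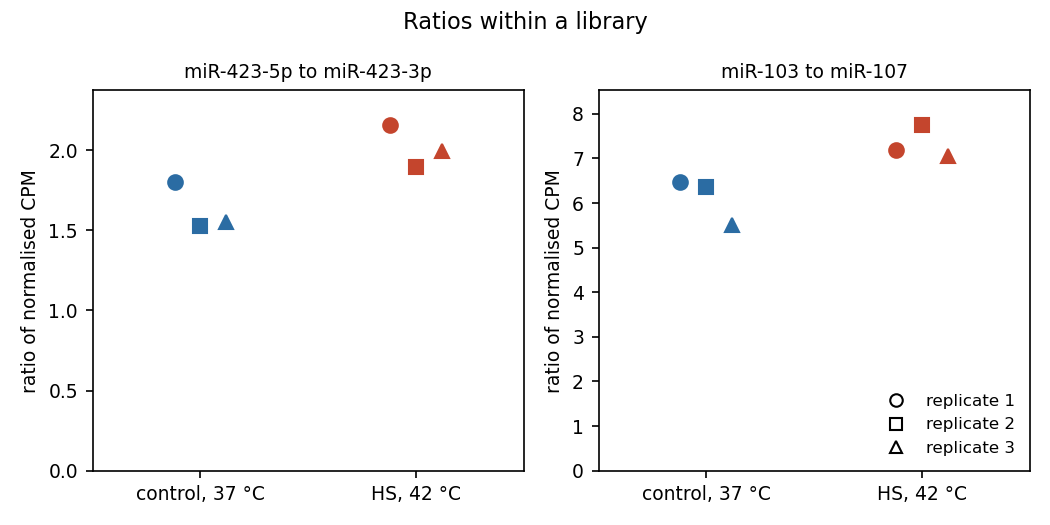
Ratio of normalised CPM within each library (y axis, from 0) for the arms of bta-miR-423 and for bta-miR-103 to bta-miR-107 in control (blue) and HS (red) libraries, with marker shapes for the replicate number. In both panels all 3 HS libraries lie above all 3 control libraries, at 1.90 to 2.16 against 1.53 to 1.80 and at 7.05 to 7.75 against 5.51 to 6.47.

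bta-miR-103 relative to bta-miR-107 showed a similar separation. The ratio was 6.47, 6.35 and 5.51 in control and 7.19, 7.75 and 7.05 in HS replicates 1, 2 and 3. In log2 it was 2.61 ± 0.127 in control and 2.87 ± 0.0716 under heat (SD over 3 libraries), a difference of 0.26 (exact two-sided permutation test, p = 0.1, the smallest possible, and 0.1 adjusted over the 2 ratios). Leaving out a library gave 0.19 to 0.31. The mature forms differ by a single base near the 3′ end and mapping tolerated a mismatch, so the sharing of reads between them is uncertain. Its part in the ratio was not tested.

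A reference passes its own change into the target, and the size of this was computed for the 3 miRNAs the study took to droplet PCR in cells. These were picked by the study on the same libraries, so their direction is not independent evidence. Relative to bta-miR-361 any log2 fold change rose by 0.19 compared with TMM scaling, and relative to bta-miR-423-5p it fell by 0.24. The geometric mean of all 7 shifted it by only 0.051. bta-miR-2344, at 262 ± 27.0 normalised CPM in control and 50.9 ± 16.1 under heat (SD over 3 libraries), had log2 fold changes from -2.66 to -2.22 over the 8 references. bta-miR-6120-3p ran from -1.85 to -1.42 and bta-miR-6523a from 1.20 to 1.64. The span between the extreme references, bta-miR-423-5p and bta-miR-107, was 0.44 for each by construction.

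Among markers of other cells, the erythroid bta-miR-451 and bta-miR-144 were at no more than 2.65 and 0.272 normalised CPM, and bta-miR-486, also erythroid, was at 11.98 to 60.1. Of the leukocyte miRNAs, bta-miR-142-5p was at 248 to 429 and bta-miR-223 at 196 to 311. The 7 blood-cell miRNAs listed for this check summed to 730 to 895 normalised CPM at 37 °C and 677 to 800 at 42 °C. The endothelial bta-miR-126 arms summed to 228 to 352 and 131 to 265. bta-miR-202, typical of gonads, was present at 1309 to 2749. Of the others listed for gonad and granulosa, bta-miR-132 was at 900 to 1083 and bta-miR-224 at 719 to 852. The lowest were bta-miR-212 at 29.8 to 38.5 and bta-miR-383 at 5.53 to 11.1. In limma 0 of the 12 tested miRNAs of these lists had an adjusted p of at most 0.2, against 7.12% of all tested, with 0.418 as the lowest. Their part in the values of the 7 was not tested, and in bulk libraries fewer cells of a type and less RNA per cell cannot be told apart.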

How the data were processed

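Small RNA libraries were prepared from total RNA (100 ng) with molecular identifiers and 16 PCR cycles. Per the labels and methods, the authors used Cutadapt 1.11 for adapters, merged reads sharing an identifier, mapped with Bowtie2 2.2.2 (UMD3.1), counted miRBase miRNAs and scaled by TMM in edgeR. The deposited signal is thus TMM-normalised CPM, 1 value per miRNA and library. All values (100%, tolerance 0.01 of a read) were whole multiples of 1 step per library, which gave the reads.

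HS was compared with control by limma 3.58.1 (trend) on log2(value + 1) after filterByExpr of edgeR 4.0.16, in R 4.3.3, with Benjamini-Hochberg adjustment over 365 miRNAs. This scale understates changes of low miRNAs. The fit was tested on simulated reads. Ratios were tested with scipy 1.17.1.

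Named were the 7, bta-miR-425, the droplet PCR miRNAs, the 3 steadiest and 3 least steady other references, the 5 steadiest miRNAs, the 2 nearest to each of the 7, and references past or just short of a threshold. Members and lists were chosen with earlier results of these data known. Alternatives were other scalings, filters, pseudocounts and tests (DESeq2 1.42.0 among them), a replicate block, and leaving out each library. The labels give no batch. Mature sequences were not used here.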

Additional observations from a re-analysis of the deposited data

How the results depend on the processing

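For the 7 miRNAs, 122 of 126 comparisons with an alternative (18 each) kept direction and side of the 0.2 threshold. In no alternative was a member past it, with adjusted p-values of 0.257 to 0.99. The 4 others changed sign: bta-miR-103 at -0.11 with upper quartile factors, bta-miR-191 at 0.033 without control replicate 1, and bta-miR-423-3p at 0.024 without control replicate 1 and 0.012 without HS replicate 3. The cause was not tested. With 1 library fewer, bta-miR-191 ran from -0.29 to 0.033 and bta-miR-423-3p from -0.16 to 0.024.

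Counts over all miRNAs were less stable. Against 8 at an adjusted p under 0.05, upper quartile factors gave 5 and DESeq2 20, and leaving out a library gave 2 to 12. Against 26 at an adjusted p of at most 0.2, no filter gave 14 and leaving out a library 8 to 29. Upper quartile factors moved the median SD of the 7 from 0.14 to 0.22. Members whose groups did not overlap numbered 2 to 4 and pairs 6 to 11 when a library was left out, alternatives chosen after the data were seen. Over the same 6 settings the share among all miRNAs tested was 26% to 37.5% and among all pairs 27.5% to 38.5%, against 20% and 23.1% with every library.

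Deviations of same-numbered libraries correlated at 0.421, -0.117 and 0.616, and since not every pair was above 0.1 the libraries were not treated as paired. Whether a number marks a shared source is not given. With the replicate block the log2 fold changes of the 7 were the same by construction, and the lowest adjusted p was 0.44, against 0.469. The block changed no call among the 7. Paired by number, both ratios were higher in HS cells in 3 of 3 pairs, with mean log2 differences of 0.31 and 0.26 (exact sign-flip test, p = 0.25, the smallest possible).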
